A study of Mus musculus with 15 samples.

Results

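Described here are 45 genes of the cell cycle and mitosis, chosen by name and role, among the 55416 genes of the deposited count table. Earlier results of these data were known when the genes were chosen. The 45 genes fall into 20 members of the passage from G1 into S phase, 19 members of G2 and mitosis (G2/M) and 6 inhibitors of the cyclin-dependent kinases (CDK). RNA came from 15 samples of SVI, a conditionally immortalised mouse podocyte line that was differentiated and then seeded on flexible silicone membranes. Experiment 1 held 3 unstretched samples and 6 samples under low stretch, with a membrane deflection of 5 to 6 mm. Experiment 2 held 3 unstretched samples and 3 samples under high stretch, with a deflection of 7 to 8 mm. All 4 groups share the line, its immortalisation and the differentiation step, and none carries another allele or agent that the labels name. The comparison for a stretched group used only the unstretched cells grown in that experiment, so amplitude and experiment cannot be told apart. The labels do not say that the samples of a group came from separate cultures or days, so p-values measure only the spread between these samples. Counts are given as CPM, counts scaled to a common library size of 1e6, and levels of different genes are compared only in TPM, which is scaled to transcript length.

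Cyclins switch on their partner kinases in turn: D-type cyclins with Cdk4 and Cdk6 in G1, E-type cyclins with Cdk2 at the entry into S phase, and A- and B-type cyclins with Cdk1 through G2 and mitosis. D- and E-type kinases release E2F factors from the retinoblastoma protein, and E2F factors drive genes for DNA replication. Genes of G2 and mitosis are repressed by the DREAM complex and are driven later through the MYB and FOXM1 factors. Podocytes in the kidney leave the cell cycle as they mature, and the CDK inhibitor p57, encoded by Cdkn1c, is known there as a mark of that exit.

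The promoter windows of the members were searched for short motifs, as a description by role. Of the 45 members, 36 had an entry in the RefSeq promoter table (build GRCm38.p6), with 41 windows of 300 bases, 250 before and 50 after a start site; Ccnd1, Ccnd2, Ccne2, Mcm4, Ccna2, Aurkb, Foxm1, Kif20a and Cdkn1c had none. Motifs of 3 kinds were searched on both strands: the CHR element, spelled TTTGAA in 1 form and TTCGAA in the other, the CCAAT box, and an E2F-type motif, spelled GCGGGAA in the first form, then with another middle as GCGCGAA, and last in the form GCGCCAA. An E2F-type GCGCCAA that is followed by T also holds a CCAAT box. A CHR element was found in 12 of 15 G2/M members, or 80.0%, against 21.7% of the 27025 genes of the table and 2 of 16 G1/S members. An E2F-type motif was found in 7 of 16 G1/S members, or 43.8%, against 9.20% of all genes and 3 of 15 G2/M members. The CCAAT box was in 14 of 15 G2/M members, in 9 of 16 G1/S members and in 41.1% of all genes. All 12 G2/M members with a CHR element also had a CCAAT box, a combination held by 9.65% of all genes. The position of the CHR element varied among the 12. In Mki67, Ccnb2 and Bub1b the last one before the start site was at -98, -167 and -188. Bub1, Aurka, Cenpa and Plk1 had it only in the 50 bases after the start site. Below are the 120 bases before the start site for the 5 G2/M genes whose last CHR element lies 14 to 23 bases before it, with CHR elements in capitals. Mcm6, a subunit of the replicative helicase, follows with E2F-type matches in capitals.
Cdk1 chr10:69352913-69353032 (- strand): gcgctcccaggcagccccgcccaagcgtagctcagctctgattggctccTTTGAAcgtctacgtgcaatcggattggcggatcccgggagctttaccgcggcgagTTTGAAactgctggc
Top2a chr11:99024190-99024309 (- strand): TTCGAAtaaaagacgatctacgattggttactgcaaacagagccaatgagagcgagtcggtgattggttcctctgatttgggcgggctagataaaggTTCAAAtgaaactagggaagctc
Cdc20 chr4:118437344-118437463 (- strand): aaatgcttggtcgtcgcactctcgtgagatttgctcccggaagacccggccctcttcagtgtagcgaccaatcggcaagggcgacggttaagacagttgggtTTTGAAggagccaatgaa
Kif11 chr19:37376262-37376381 (+ strand): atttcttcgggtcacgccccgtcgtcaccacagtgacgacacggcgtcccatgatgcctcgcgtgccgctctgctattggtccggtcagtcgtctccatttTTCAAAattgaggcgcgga
Ccnf chr17:24251410-24251529 (- strand): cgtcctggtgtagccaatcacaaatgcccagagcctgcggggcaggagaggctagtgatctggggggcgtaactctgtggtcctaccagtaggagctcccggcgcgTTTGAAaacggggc
Mcm6 chr1:128359706-128359825 (- strand): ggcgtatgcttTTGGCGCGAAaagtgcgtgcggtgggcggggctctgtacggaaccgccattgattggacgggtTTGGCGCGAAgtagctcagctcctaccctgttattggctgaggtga
Each of these matches is a description of letters in the window and not a measured binding site.

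Total counts per sample ranged from 172.2 to 396.7 M (1e6 counts). Of the podocyte markers, Synpo, Podxl, Actn4, Cd2ap, Wt1 and Lmx1b had a mean of at least 1 CPM, whereas the slit diaphragm gene Nphs1 and also Tcf21, Foxc2 and Ptpro were under 1 CPM. All 4 endothelial markers and the leukocyte markers Ptprc and Adgre1 were under 1 CPM, and all 3 parietal epithelial markers were above it. Cd68, the remaining leukocyte marker, had a mean of at least 1 CPM. The 3 leukocyte markers summed to 1.12 to 1.26 CPM in unstretched and 0.928 to 1.19 CPM in low-stretch samples of experiment 1. In experiment 2 they summed to 0.754 to 1.27 CPM unstretched and 1.60 to 2.17 CPM under high stretch, and their part was not tested. The summed level of 5 tubule markers, of which Slc34a1 and Umod were under 1 CPM, ranged from 1287 to 1911 CPM in unstretched and from 637 to 1051 CPM in low-stretch samples of experiment 1, and from 1677 to 2218 against 584 to 640.2 CPM in experiment 2. It thus moved with stretch in both experiments, and its part in the results was not tested. Summed markers of mesangium and fibroblasts, nearly all of them Acta2, ranged from 1262 to 1999 CPM against 1511 to 3940 CPM in experiment 1 and from 2552 to 7226 against 6534 to 10490 CPM in experiment 2, with overlapping groups, and their part was not tested either. The position codes in the sample descriptions give an order of neighbouring positions but mark no runs, and what they record is not stated. In that order the samples were split here into 6 runs, a new run starting at each unstretched sample. Each run thus holds 1 unstretched sample by construction. Runs 1 to 3 lie in experiment 1 with 2 low-stretch samples each, and runs 4 to 6 in experiment 2 with 1 high-stretch sample each. Samples of 1 run in experiment 1 deviated from their group means together, with a mean correlation across genes of 0.453 (range 0.336 to 0.585), against -0.226 for samples of different runs. For experiment 2 the mean was 0.224 within runs (range -0.258 to 0.595) and -0.129 between runs (range -0.692 to 0.567). These ranges overlapped, so the correlations do not show that samples of 1 run go together there. Among the 3 unstretched samples of experiment 2, replicate 3 was the lowest for 24 and the highest for 15 of the 44 members tested. The same count over all genes was not made, so these counts have no background to be read against. The results for the members are given also within runs, without run 2 and without unstretched replicate 3 of experiment 2.

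The members were expressed over a wide range, with 44 of 45 at 1 CPM or more. In unstretched cells of experiment 1 the level was highest for Cdk4, the G1 kinase, at 1019 ± 129 TPM (SD, n = 3), followed by its partner cyclin Ccnd2 at 696 ± 68.2 and the mitotic kinase Cdk1 at 434 ± 121 TPM. Ccnd2 exceeded the other D-type cyclins, Ccnd3 at 137 and Ccnd1 at 79.1 TPM, and Cdk4 exceeded Cdk6, its close relative, at 21.4 TPM. Replication and mitosis genes were not at background: Pcna, the clamp of the replicative polymerases, was at 181 TPM, Top2a, the topoisomerase of dividing cells, at 172 TPM, and Mki67, the proliferation marker that coats mitotic chromosomes, at 52.7 TPM. The lowest measured level among the G1/S members was that of Cdc6, a licensing factor, at 12.4 TPM.

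**Figure D1:**
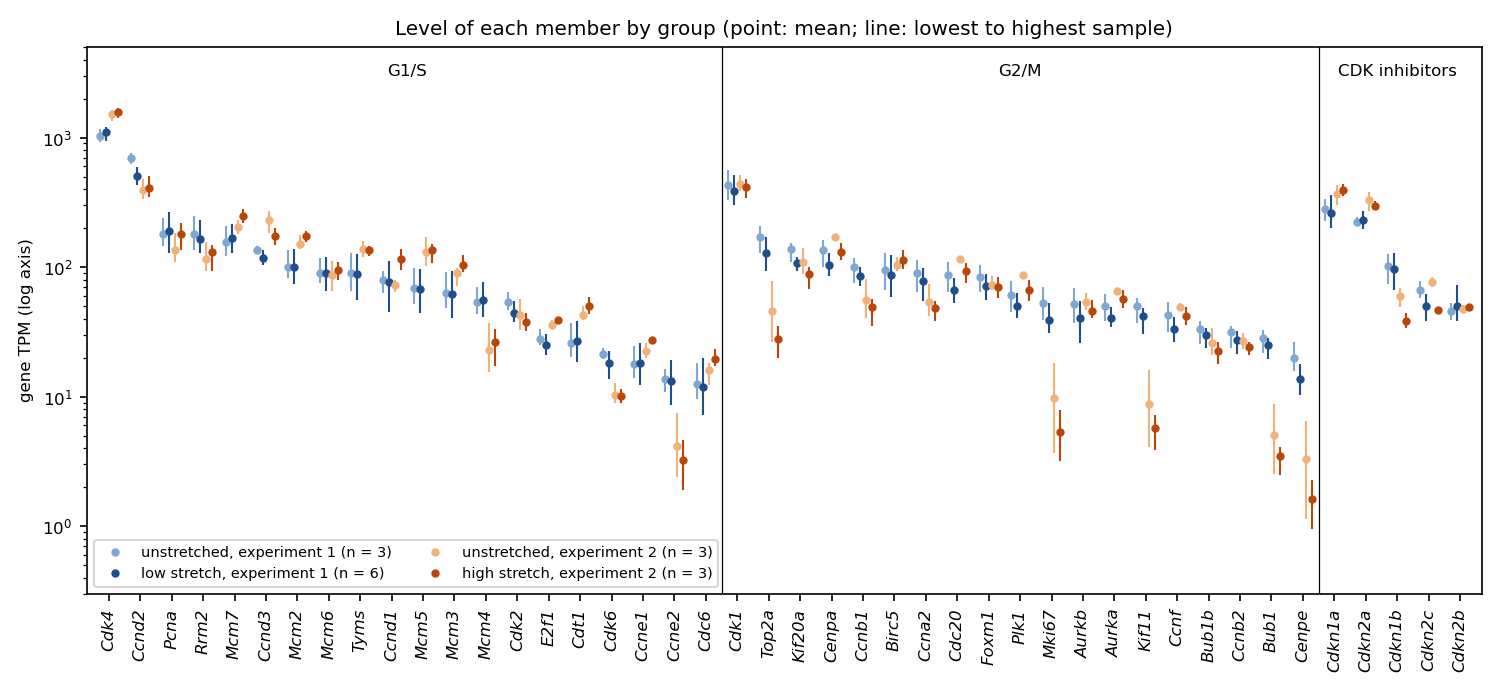
Gene TPM (log axis) of 44 members in the 4 groups, ordered within each role by the level in unstretched cells of experiment 1; points are group means and lines run from the lowest to the highest sample. Cdk4 stands highest in all 4 groups, and Mki67, Kif11, Bub1 and Cenpe lie lower in both groups of experiment 2.

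The CDK inhibitors differed widely in level. Cdkn1a, which encodes p21, a target of p53, was at 282 ± 54.5 TPM (SD, n = 3) and Cdkn2a at 225 ± 17.8 TPM in unstretched cells of experiment 1. Cdkn1b (p27), Cdkn2c (p18) and Cdkn2b (p15) followed at 102, 66.1 and 45.6 TPM. Cdkn1c, the p57 gene that marks mature podocytes, had 0 to 9 counts in each of the 15 libraries and did not pass the filter on low counts. With counts of 4, 1 and 4 in the unstretched and 0 to 2 in the low-stretch samples of experiment 1, and of 2, 1 and 9 against 2, 5 and 2 in experiment 2, no difference in Cdkn1c was detectable.

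Cdkn2a has 2 first exons that give the unrelated proteins p19Arf and p16Ink4a, and both start sites were in use. The transcript from the upstream start, Cdkn2a-202, made up 76.6% ± 1.65 (SD, n = 3) of the gene's TPM in unstretched cells of experiment 1 and 76.1% ± 3.55 (SD, n = 3) in those of experiment 2. Its level was 172 and 252 TPM, against 52.6 and 80.6 TPM for Cdkn2a-201 from the downstream start. Printed here are the 120 bases before each RefSeq start site, the upstream one first, with an E2F-type match in capitals where the window has one.
Cdkn2a chr4:89294620-89294739 (- strand): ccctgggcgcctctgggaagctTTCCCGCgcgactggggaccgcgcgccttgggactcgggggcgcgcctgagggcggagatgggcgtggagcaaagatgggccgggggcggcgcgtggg
Cdkn2a chr4:89282193-89282312 (- strand): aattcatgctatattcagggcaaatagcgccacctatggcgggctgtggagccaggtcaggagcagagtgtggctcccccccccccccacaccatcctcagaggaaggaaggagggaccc
The upstream window holds GCGGGAA on the reverse strand, and none of the 3 E2F-type words was found in the 120 bases shown for the downstream start.

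The levels of the members in experiment 1 differed between runs. In run 2, which holds unstretched replicate 2 and low-stretch replicates 3 and 4, 27 of 44 members were higher in all 3 samples than in any of the other 6, against 7.77% of the 21672 genes tested. These were 16 of 20 G1/S members and 11 of 19 G2/M members, and no CDK inhibitor. The median ratio of run 2 to the other samples was 1.68 for G1/S, 1.43 for G2/M and 0.975 for the CDK inhibitors, and the highest ratio was 2.14, for Cdc6. Only Cdkn1b was lower in all 3 samples of run 2 than in the other 6, at 121 to 140.0 CPM against 151 to 217 CPM. Run 2 holds samples of both groups, and what sets it apart was not tested.

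**Figure D2:**
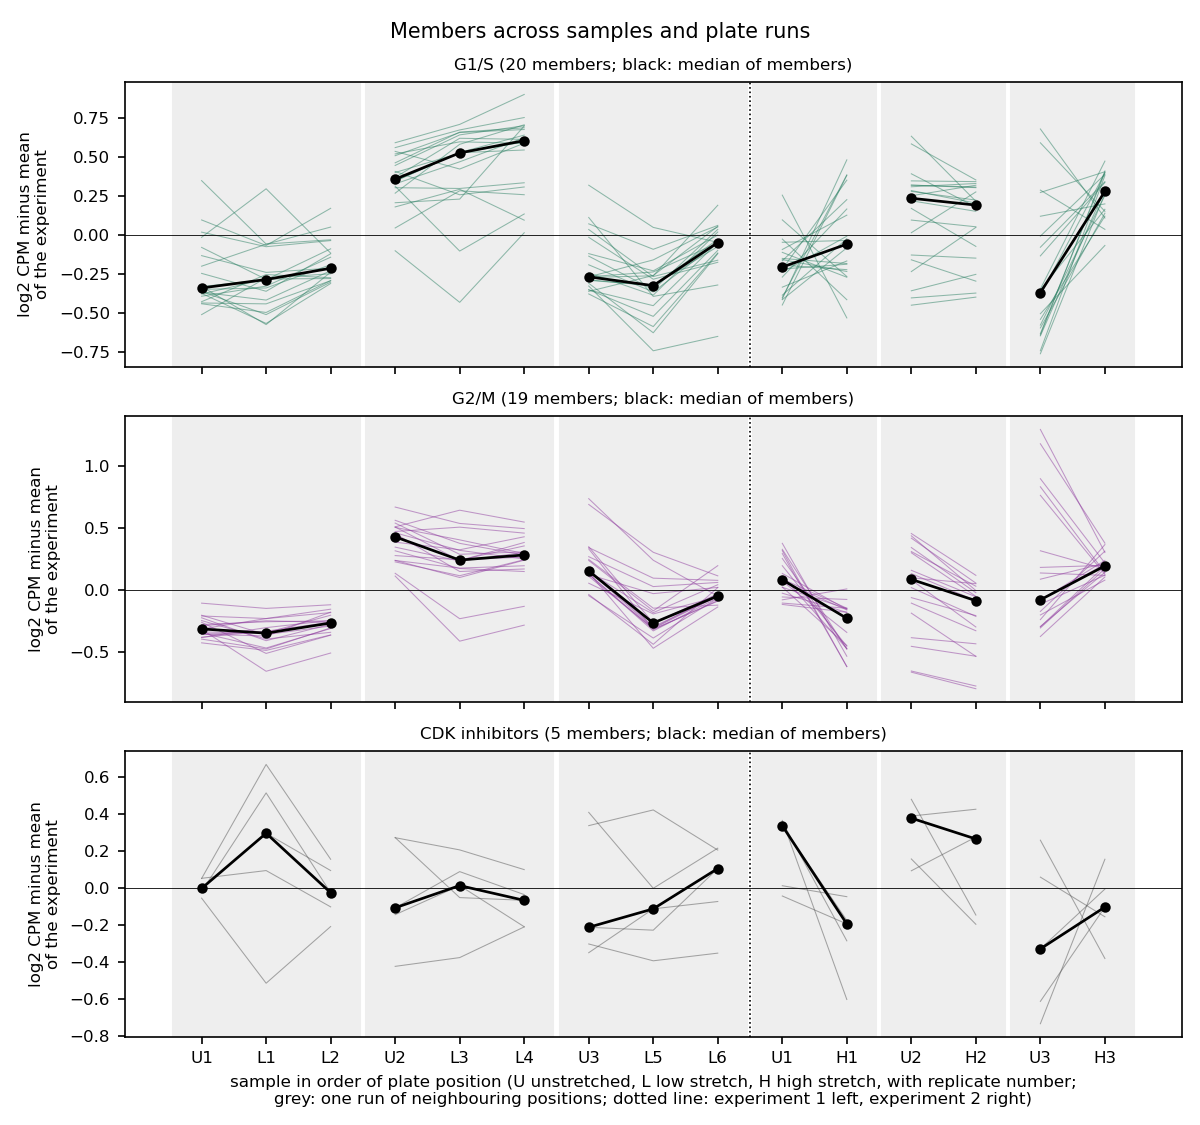
Log2 CPM of each member minus its mean over the experiment, for the samples in order of plate position (U unstretched, L low stretch, H high stretch, with the replicate number); grey areas are runs, thin lines are members and black points are medians. The G1/S and G2/M medians of all 3 samples of run 2 (U2, L3, L4) lie above 0 in experiment 1, while the CDK inhibitor median does not stand apart there.

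Experiment 1 shows the members under low stretch. No member passed the edgeR quasi-likelihood test across all genes at an adjusted p under 0.05 (0 of 44 members, against 5.45% of all genes tested), and DESeq2 also called 0. At an unadjusted p under 0.05 there were 2 members in edgeR and 2 in DESeq2. The edgeR fitted values were nevertheless below 0 for 19 of 19 G2/M members (18 of 19 in DESeq2), against 10617 of all 21672 genes tested. The G2/M median log2 fold change was -0.17, against 0.0077 for all genes. These members share the same samples, so their signs are not independent of each other. For the G1/S members 14 of 20 were above 0, with a median of 0.10, and for the 5 CDK inhibitors tested the median was 0.032. Without unstretched replicate 2, the unstretched sample of run 2, the G2/M median was 0.030 and the G1/S median 0.35, so the sign of the G2/M median rested on that sample in this fit. That fit keeps low-stretch replicates 3 and 4 of run 2 without the unstretched sample of their run. With the run as a block the G2/M median was -0.16, and without run 2 as a whole it also stayed below 0. In bulk RNA, fewer cells in a phase of the cycle and less RNA of its genes per cell cannot be told apart. With the run as a block, 11 members passed: 2 were higher under low stretch (of 44, against 13.7% of all genes that were higher in this fit) and 9 were lower (against 14.5% of all genes). The members that fell made up 20.5% and those that rose 4.55%. These shares rest on few genes and were not tested against those of all genes. Below the unstretched sample of their run in all 6 stretched samples were 20.5% of members and 20.5% of all genes. Of the G2/M members 6 fell and none rose in this fit, of the G1/S members 2 rose and 2 fell, and of the CDK inhibitors 1 fell.

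Among the D-type cyclins and G1 kinases, Ccnd2 had the lowest p of all members. Its CPM was 2168, 2115 and 1840.0 in the unstretched replicates and 1295 at the lowest, 1609.9 at the median and 1869 at the highest of the 6 low-stretch samples. Low-stretch replicate 4 lay above the lowest unstretched sample, replicate 3, so that the groups overlapped by this 1 sample. The log2 fold change was -0.39 (standard error 0.12, edgeR adjusted p 0.0906, DESeq2 adjusted p 0.0570), and with the run as a block it fell by 0.39 with an edgeR adjusted p of 0.00204. All 6 stretched samples were below the unstretched sample of their own run. Cdk4 was at 505, 599 and 482 CPM in the unstretched replicates and 519 at the lowest, 601 at the median and 706 at the highest under low stretch. The groups overlapped across runs, but within each run both stretched samples were above the unstretched one, by a mean log2 difference of 0.20, 0.23 and 0.21 in runs 1 to 3. Its log2 fold change was 0.21 without a block (edgeR adjusted p 0.332) and 0.21 with it (adjusted p 0.0371). Cdk2, the kinase of E-type cyclins, was at 52.4, 73.4 and 56.7 CPM unstretched and 45.4 at the lowest, 48.6 at the median and 68.5 at the highest under low stretch, with overlapping groups. It fell by 0.19 in the fit with the run block (edgeR adjusted p 0.0192). Ccnd1 was at 101, 123 and 81.2 CPM unstretched and 60.9 at the lowest, 109.7 at the median and 166 at the highest under low stretch, and its groups overlapped fully. It was higher under stretch in runs 1 and 2 on average and lower in run 3, with a log2 fold change of 0.12 (edgeR adjusted p 0.856).

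Among the genes of DNA replication, run 2 held the highest samples. Mcm7, a helicase subunit, was at 130.4, 240.2 and 145 CPM in the unstretched replicates and 154 at the lowest, 175 at the median and 286 at the highest under low stretch. In each run both stretched samples exceeded the unstretched one, with mean log2 differences of 0.25, 0.25 and 0.26. With the run block Mcm7 rose by 0.25 on the log2 scale (edgeR adjusted p 0.0235, against 0.621 without it). Pcna was at 97.3, 167 and 109 CPM unstretched and 96.9 at the lowest, 130.0 at the median and 205 at the highest under stretch, and Mcm5, another helicase subunit, at 68.3, 132 and 78.4 and 65.7 at the lowest, 84.9 at the median and 148 at the highest. Cdc6 was at 15.1, 28.6 and 15.3 CPM unstretched and 12.3 at the lowest, 16.8 at the median and 35.5 at the highest under stretch. For all 3 genes unstretched replicate 2 and low-stretch replicates 3 and 4, the samples of run 2, were the highest, and the groups overlapped. E2f1, an activator of these genes, was at 34.3, 46.4 and 34.6 CPM unstretched and 31.8 at the lowest, 35.0 at the median and 47.5 at the highest under stretch. The log2 fold changes were 0.19 for Pcna, 0.10 for Mcm5, 0.073 for Cdc6 and -0.027 for E2f1, with standard errors of 0.27, 0.31, 0.37 and 0.17. Their edgeR adjusted p-values were between 0.701 and 0.938, and none passed with the run block. Mcm4, a further helicase subunit, was above the unstretched sample of its run in all 6 stretched samples, as were Cdk4 and Mcm7, and these were the 3 members of 44 with that pattern, against 20.9% of all genes.

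The G2/M members that passed with the run block were Mki67, Top2a, Cenpa, Cenpe, Aurkb and Ccnf. Mki67 was at 214, 274 and 403 CPM in the unstretched replicates and 188 at the lowest, 220.3 at the median and 308 at the highest under low stretch. The unstretched replicate of run 3 was the highest of the 9 samples, and the groups overlapped across runs. Top2a was at 224, 382 and 319 CPM unstretched and 189 at the lowest, 245 at the median and 350.5 at the highest under stretch. Cenpa, the histone variant of centromeres, was at 55.0, 86.7 and 80.6 and 49.4 at the lowest, 57.3 at the median and 71.2 at the highest, and Cenpe, a kinetochore motor, at 56.6, 65.9 and 101 and 45.8 at the lowest, 55.5 at the median and 71.9 at the highest. In each of these 4 genes every stretched sample lay below the unstretched sample of its run. With the run block the log2 fold changes were -0.31 for Mki67, -0.26 for Top2a, -0.31 for Cenpa and -0.39 for Cenpe, with edgeR adjusted p-values of 0.00965, 0.0108, 0.0110 and 0.0140. Without the block the edgeR adjusted p-values were 0.317, 0.486, 0.262 and 0.180. Aurkb, a kinase of the chromosomal passenger complex, was at 28.8, 57.0 and 38.7 CPM unstretched and 22.8 at the lowest, 31.8 at the median and 52.0 at the highest under stretch, and Ccnf, a substrate receptor of a ubiquitin ligase, at 52.1, 89.9 and 69.4 and 47.0 at the lowest, 55.0 at the median and 76.6 at the highest. Their groups overlapped across runs, and Aurkb and Ccnf fell by 0.24 and 0.24 in that fit (edgeR adjusted p 0.0245 and 0.0203). These 6 were also the G2/M members below the unstretched sample of their run in all 6 stretched samples. Together with Ccnd2, Cdk2 and Cdkn2c they made 9 of 44 members with that pattern, or 20.5%, against 20.5% of all genes.

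Cdk1 and its partner cyclin, at the centre of mitotic entry, did not pass in either fit. Cdk1 was at 123, 218 and 152 CPM in the unstretched replicates and 120.3 at the lowest, 140.4 at the median and 224 at the highest under low stretch, with a log2 fold change of -0.042 (standard error 0.25, edgeR adjusted p 0.937). Ccnb1, its partner cyclin, was at 73.5, 116 and 102 CPM unstretched and 73.9 at the lowest, 85.0 at the median and 113 at the highest under stretch, with a log2 fold change of -0.11 (edgeR adjusted p 0.731). In both genes the run 2 samples were the highest of their group and the groups overlapped. The other G2/M members, Ccna2, Ccnb2, Aurka, Plk1, Bub1, Bub1b, Cdc20, Birc5, Foxm1, Kif11 and Kif20a, did not pass in either fit.

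Of the CDK inhibitors, Cdkn2c was at 44.3, 55.6 and 61.1 CPM in the unstretched replicates and 32.2 at the lowest, 44.2 at the median and 53.5 at the highest under low stretch. The groups overlapped, but every stretched sample was below the unstretched sample of its run, by mean log2 differences of -0.31, -0.33 and -0.30. Cdkn2c fell by 0.32 with the run block (edgeR adjusted p 0.0103, against 0.216 without it). Cdkn1a was at 223, 274 and 184 CPM unstretched and 172 at the lowest, 233 at the median and 324 at the highest under stretch, and Cdkn1b at 168, 121 and 205 and 125 at the lowest, 162 at the median and 217 at the highest. Cdkn2a was at 86.6, 80.5 and 74.9 CPM unstretched and 74.0 at the lowest, 92.4 at the median and 107 at the highest under stretch, and Cdkn2b at 32.9, 28.8 and 24.9 and 27.5 at the lowest, 31.1 at the median and 50.5 at the highest. Low-stretch replicate 1 was the highest of all 9 samples for Cdkn1a, Cdkn2a and Cdkn2b, and the groups of all 4 genes overlapped. Their log2 fold changes lay between 0.0047 for Cdkn1b and 0.24 for Cdkn2b, with edgeR adjusted p-values from 0.396 for Cdkn2a to 0.992 for Cdkn1b.

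**Figure D3:**
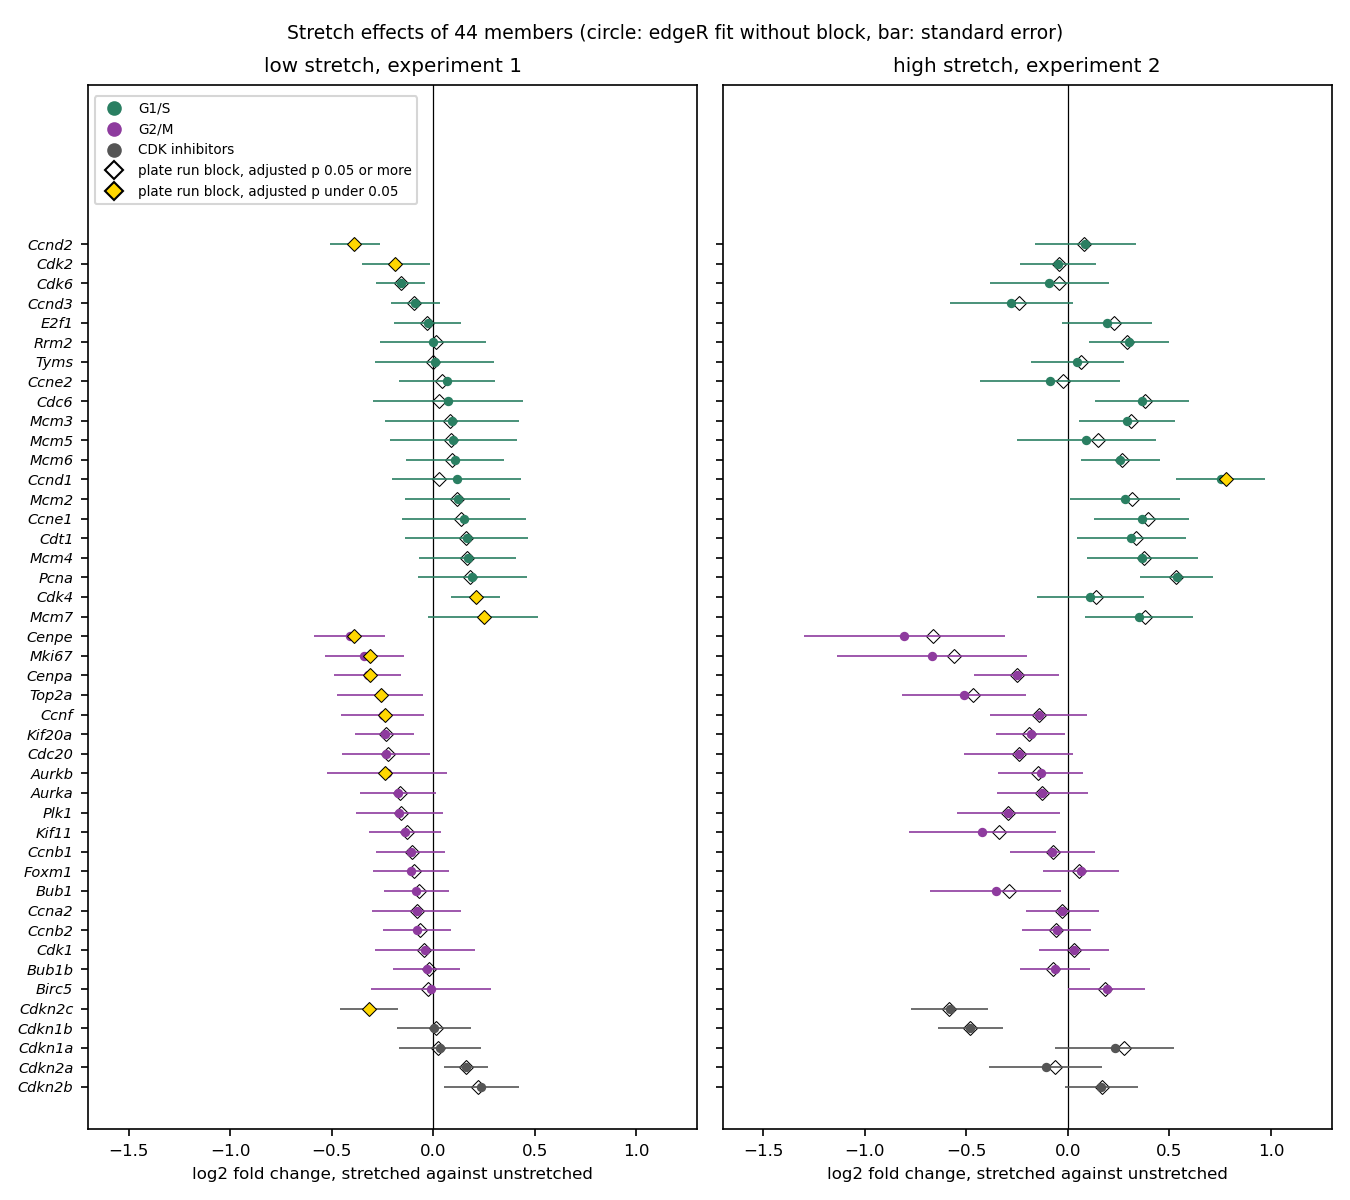
Log2 fold changes of 44 members under low stretch (left) and high stretch (right); circles with standard error bars are the edgeR fits without a block, diamonds the fits with the run as a block, yellow where the adjusted p was under 0.05. All 19 G2/M circles lie below 0 on the left; 11 diamonds are yellow on the left and only that of Ccnd1 on the right.

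Leaving out the 3 samples of run 2 kept the count of members called at 0. The medians were then 0.055 for G1/S, -0.15 for G2/M and 0.14 for the CDK inhibitors, against 0.10, -0.17 and 0.032 with run 2. Within runs, the median log2 difference of the G2/M members was 0.017 in run 1, -0.15 in run 2 and -0.32 in run 3, with 7, 17 and 19 of 19 members lower. The G2/M median was thus below 0 in runs 2 and 3 and not in run 1. For the G1/S members the medians were 0.045, 0.18 and 0.016 in runs 1 to 3. The medians over all genes were between -0.014 and 0.010 in these runs.

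Experiment 2 shows them under high stretch. No member passed without a block (0 of 44, against 3.47% of all genes tested), and DESeq2 called 0. At an unadjusted p under 0.05 there were 4 members in each of edgeR and DESeq2: Ccnd1, Pcna, Cdkn1b and Cdkn2c in edgeR. The median log2 fold change was 0.27 for the G1/S members, with 16 of 20 above 0, -0.14 for the G2/M members, with 16 of 19 below 0, -0.11 for the CDK inhibitors and -0.022 for all genes. With the run as a block, which is the replicate number here, 1 of 44 members was higher (against 3.31% of all genes that were higher), and none was lower. The correlations between samples did not bear out this pairing in experiment 2. Without unstretched replicate 3 the medians were 0.21 for G1/S, -0.095 for G2/M and -0.34 for the CDK inhibitors, and 1 member passed, Cdkn2c, among 1421 genes called in that fit.

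The member that passed with the block was Ccnd1, the cyclin D1 gene. Its CPM was 138, 186 and 109.9 in the unstretched replicates and 257, 223 and 239.7 under high stretch. All 3 stretched samples were above all 3 unstretched ones, but the share of all genes that separated in this way was not counted. The log2 fold change was 0.75 without a block (standard error 0.22, edgeR adjusted p 0.127, DESeq2 adjusted p 0.0641), and with it Ccnd1 rose by 0.78 (edgeR adjusted p 0.0300). Without unstretched replicate 3 the log2 fold change was 0.62 (edgeR adjusted p 0.0669), and without unstretched replicate 2 it was 0.98 (edgeR adjusted p 0.0477). Over 13 alternative fits the edgeR or DESeq2 adjusted p of Ccnd1 ranged from 0.0300 to 0.465. It was under 0.05 in 3 of them, which count the block by run and the same block by replicate number separately. Ccnd2, the more abundant D-type cyclin, was at 1122, 1170.1 and 1596 CPM unstretched and 1668, 1064 and 1340.1 under stretch. Its groups overlapped, it was higher under stretch only in run 4, and the log2 fold change was 0.086 (edgeR adjusted p 0.948). Cdk4 was at 1312, 1531 and 811 CPM unstretched and 1019.7, 1518 and 1351 under stretch, with overlapping groups and a log2 fold change of 0.11 (edgeR adjusted p 0.937).

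Pcna was at 123, 139 and 149 CPM in the unstretched replicates and 213, 169 and 206 under high stretch. The groups did not overlap, and here too the share of all genes without overlap was not counted. The log2 fold change was 0.54 (standard error 0.18, edgeR adjusted p 0.197 without and 0.202 with the block). Mcm5 was at 270.1, 412 and 162 CPM unstretched and 206, 351 and 331 under stretch, Mcm7 at 354, 509.8 and 265 and 361, 517 and 543. Both were lowest in unstretched replicate 3, and their differences in run 6, which holds it, were 1.03 and 1.03 on the log2 scale. Cdc6 was at 31.9, 49.5 and 33.4 CPM unstretched and 40.1, 47.2 and 59.0 under stretch, and E2f1 at 76.7, 96.1 and 54.4 and 77.3, 92.5 and 86.1. The groups of these 4 genes overlapped, and their log2 fold changes were 0.091 for Mcm5, 0.35 for Mcm7, 0.37 for Cdc6 and 0.19 for E2f1, with edgeR adjusted p-values from 0.589 to 0.962. Ccnd1, Ccne1, Pcna, Mcm4 and Mcm7 were above the unstretched sample of their run in all 3 stretched samples, 5 of 44 members against 18.2% of all genes.

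The G2/M members with the lowest fitted values, Cenpe, Mki67 and Top2a, were highest in unstretched replicate 3. Mki67 was at 65.3, 33.1 and 118 CPM in the unstretched replicates and 37.4, 30.4 and 67.6 under high stretch. Top2a was at 92.7, 77.5 and 157 and 69.6, 60.9 and 97.2, and Cenpe at 15.2, 7.41 and 28.8 and 8.10, 6.75 and 14.5. Each stretched sample was below the unstretched sample of its run, and the groups overlapped. The log2 fold changes were -0.67 for Mki67, -0.51 for Top2a and -0.81 for Cenpe, with edgeR adjusted p-values of 0.650, 0.551 and 0.568. Without unstretched replicate 3 they were -0.079, -0.11 and -0.17. Cenpa was at 113, 120.1 and 82.4 CPM unstretched and 68.3, 93.3 and 100.1 under stretch, with a log2 fold change of -0.25 (edgeR adjusted p 0.729). Cdk1 was at 231, 277 and 235 and 224, 239 and 287, and Ccnb1 at 65.4, 64.2 and 86.0 and 69.5, 55.0 and 77.7. Both had overlapping groups and log2 fold changes near 0, 0.030 (standard error 0.17) and -0.077 (standard error 0.21).

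Among the CDK inhibitors, Cdkn2c and Cdkn1b had the lowest fitted values. Cdkn2c was at 105, 113 and 84.6 CPM in the unstretched replicates and 53.5, 73.4 and 72.9 under high stretch, and Cdkn1b at 120.5, 106 and 114 and 84.5, 83.2 and 73.2. In both genes all 3 stretched samples were below all 3 unstretched ones. How many of all genes separated in this way was not counted, so the separation has no background to be read against. The log2 fold changes were -0.58 and -0.48 (standard errors 0.19 and 0.16, edgeR adjusted p 0.181 and 0.191). Without unstretched replicate 3, Cdkn2c fell by 0.66 with an edgeR adjusted p of 0.0457, and Cdkn1b had a log2 fold change of -0.44 with 0.146. These were the lowest values over 13 alternative fits, in which the edgeR or DESeq2 adjusted p reached 0.536 for Cdkn2c and 0.687 for Cdkn1b. Cdkn2c was under 0.05 in 1 of them and Cdkn1b in 0. Cdkn2c and Cdkn1b were among 8 of 44 members below the unstretched sample of their run in all 3 stretched samples, the other 6 being G2/M members, against 19.2% of all genes. Cdkn1a was at 461, 623 and 286 CPM unstretched and 415, 639 and 529.6 under stretch, Cdkn2a at 222, 225 and 113 and 142, 208 and 161, and Cdkn2b at 47.8, 50.6 and 37.7 and 45.9, 57.4 and 47.2. Cdkn1a, Cdkn2a and Cdkn2b were lowest in unstretched replicate 3, their groups overlapped, and their log2 fold changes were 0.23, -0.11 and 0.16 with edgeR adjusted p-values from 0.824 to 0.942.

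**Figure D4:**
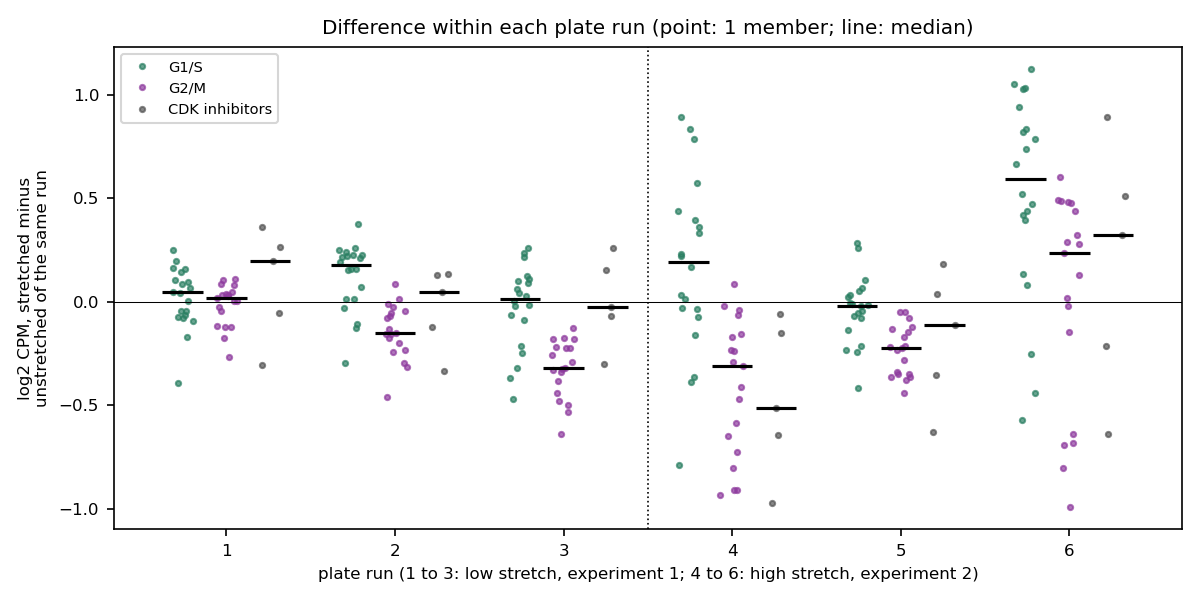
Log2 CPM of each member in the stretched samples minus that in the unstretched sample of the same run; runs 1 to 3 hold low stretch and runs 4 to 6 high stretch, and black lines are medians. The G2/M median lies below 0 in runs 2 to 5 and above 0 in runs 1 and 6.

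The runs of experiment 2 did not give the same picture. The G2/M median within runs was -0.31 in run 4, -0.22 in run 5 and 0.23 in run 6, with 18, 19 and 7 of 19 members lower. For G1/S it was 0.19, -0.018 and 0.59, with 13, 7 and 17 of 20 members higher. Run 6 holds unstretched replicate 3, and results without that sample are given above.

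The test of the difference between the high-stretch and low-stretch effects over all 15 samples called 0 of 44 members, against 0% of the 22015 genes tested, and DESeq2 called 0. At an unadjusted p under 0.05 there was no member in either tool. The largest difference among members was that of Ccnd1, 0.61 with a standard error of 0.43 (edgeR adjusted p 1.00), and with the run block 0.73 with 0.24 (adjusted p 0.571). Next came Cdkn1b at -0.51 (standard error 0.27) and Ccnd2 at 0.45 (standard error 0.25). The passing of Ccnd1 in 1 experiment and of Ccnd2 in the other is therefore not shown to be a difference between amplitudes.

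The unstretched cells of the 2 experiments were also compared. Of 44 members, 29 passed edgeR's test between the unstretched groups: 20 were higher in experiment 2 (45.5%, against 29.7% of all genes) and 9 were lower (20.5%, against 32.7% of all genes). Higher were 11 G1/S members, 5 G2/M members and 4 CDK inhibitors, led by Mcm5, from 92.9 ± 34.3 to 282 ± 126 CPM (SD, n = 3 each, log2 fold change 1.58, adjusted p 0.00783), and Ccnd3, from 95.9 ± 7.06 to 247 ± 91.4 CPM (log2 fold change 1.35). Among the kinases Cdk4 was higher by 1.19, and Plk1, the polo-like kinase of mitosis, by 1.12, while among the inhibitors Cdkn2a was higher by 1.20, Cdkn1a by 0.99, Cdkn2c by 0.89 and Cdkn2b by 0.64. Lower were Cenpe, Mki67, Kif11, Bub1, Top2a, Ccne2, Cdk6, Mcm4 and Ccnd2. Mki67 went from 297 ± 96.5 to 72.0 ± 42.7 CPM (log2 fold change -2.06, edgeR adjusted p 0.00598) and Cenpe from 74.6 ± 23.7 to 17.1 ± 10.8 CPM (log2 fold change -2.14, edgeR adjusted p 0.00600). Without unstretched replicate 3 of experiment 1, 19 members passed, and the count over all genes went from 12941 of 20707 to 9555 of 20994. Of the genes named here, Ccnd2, Cdkn1a and Cdkn2b each lost the call in some fits with 1 sample left out, with edgeR adjusted p-values up to 0.107, 0.0750 and 0.0952, without a change of sign.

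Members of 1 role therefore went both ways between the experiments. Of the 6 subunits of the replicative helicase, Mcm2, Mcm3, Mcm5 and Mcm7 were higher in experiment 2, Mcm4 was lower by 0.75 on the log2 scale, and Mcm6 did not pass. Ccne1 was higher by 0.96 and Ccne2 was lower, with a log2 fold change of -1.49. The 2 sets differed in base composition and length: the leading transcripts of the 20 higher members held 44.8% to 60.2% G and C (median 54.6%) and had a median length of 1988.5 bases, and those of the 9 lower members held 35.1% to 47.1% (median 43.4%) and had a median length of 5221 bases. Across the 44 members the baseline log2 fold change and the GC content had a Pearson's r of 0.82 and a Spearman's rho of 0.86, and with length r was -0.67. These points share 6 libraries and are a description without a test. The difference of unstretched replicate 3 of experiment 2 from replicates 1 and 2 went the other way, with an r of -0.86 with GC content over the same members. For the stretch effects r with GC content was 0.28 under low and 0.30 under high stretch. The part of GC content and length in these differences was not tested.

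**Figure D5:**
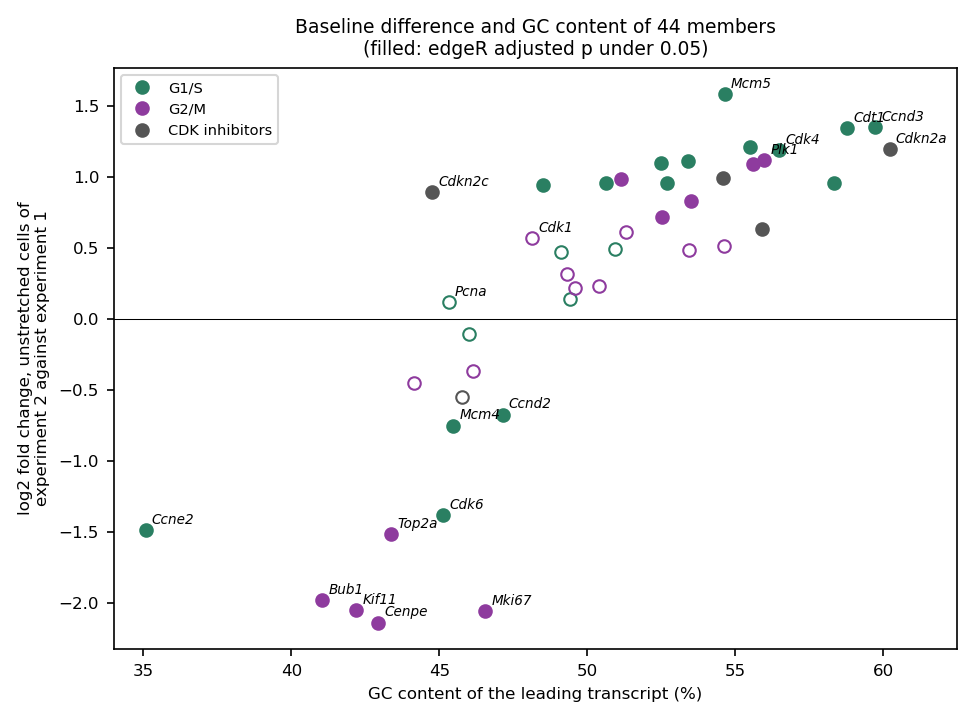
Log2 fold change between the unstretched cells of experiment 2 and experiment 1 against the GC content of the leading transcript, for 44 members; filled points had an edgeR adjusted p under 0.05. Of the filled points the 9 below 0 lie between 35.1% and 47.1% GC, and the 20 above 0 lie between 44.8% and 60.2%.

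Transcript usage, the share of each transcript in its gene's TPM, was tested in the same comparisons because the study concerns alternative splicing. Of 83 transcripts of 30 member genes tested under low stretch, limma called 0, against 0.0144% of all transcripts tested, with 8 at an unadjusted p under 0.05. Of 71 transcripts of 26 member genes under high stretch it called 0, against 0% of all transcripts tested, with 4 at an unadjusted p under 0.05. The lowest p was that of Cdkn1a-202, a minor transcript of the p21 gene, which made up 11.5% ± 0.414 (SD, n = 3) of Cdkn1a in unstretched and 8.44% ± 0.332 (SD, n = 6) in low-stretch cells (limma adjusted p 0.179). In experiment 2 its share was 13.6% ± 2.14 in unstretched and 8.95% ± 1.25 in high-stretch cells (SD, n = 3 each, limma adjusted p 0.551). The main transcript Cdkn1a-201 made up 84.8% ± 0.808 and 88.1% ± 0.617 in experiment 1 (limma adjusted p 0.267).

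Other genes around the cell cycle were taken from 5 lists. Of 17 regulators of the RB, E2F and DREAM pathway that were tested, 0 passed under low stretch without a block, and 3 had an unadjusted p under 0.05 (DESeq2 called 2), with a median log2 fold change of -0.077. With the run block, in which 13.7% of all genes were higher and 14.5% lower, 2 were higher, E2f4 (0.22) and Lin37 (0.28), and 4 lower, among them Tfdp2 (-0.39), a partner of E2F factors, and the late repressor E2f8 (-0.36), with edgeR adjusted p-values of 0.0113, 0.0178, 0.00204 and 0.0143. Of 25 genes of origin licensing, replication and its checkpoint 0 passed without a block, 22 were above 0 and the median was 0.11; edgeR gave 0 and DESeq2 gave 0, with 0 at an unadjusted p under 0.05. With the run block Orc2, Gins1 and Chek1, the checkpoint kinase, rose by 0.17, 0.32 and 0.23 (edgeR adjusted p 0.0432, 0.0123 and 0.0114), and none of this list fell. These are 3 of 25, against the 13.7% of all genes that were higher in that fit, so the count is close to the background. Of 25 genes of the spindle, kinetochore and cytokinesis 0 passed without a block in edgeR or DESeq2, with 2 at an unadjusted p under 0.05, and 22 were below 0 with a median of -0.090. With the run block 6 of 25 fell, against 14.5% of all genes, and none rose; among the 6 were Cenpf, Cdkn3, Hmmr, Espl1 and Cdc25c, which fell by 0.43, 0.40, 0.40, 0.29 and 0.27 with edgeR adjusted p-values from 0.00276 to 0.0288. 

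Among 16 p53 targets, 2 fell under low stretch without a block, where 781 of all 21672 genes were lower: Bbc3, a promoter of apoptosis, by 0.45 (edgeR adjusted p 0.0130) and Sesn2, a stress sensor, by 0.40 (edgeR adjusted p 0.0309). With the run block 6 of 16 fell, against 14.5% of all genes: Gadd45a, Sesn1, Zmat3 and Trp53inp1 besides these. Plk2 rose. Cdkn1a, the p53 target among the members, was not among them. Of 12 genes of quiescence and growth arrest 2 passed under low stretch without a block, against 5.45% of all genes. Gas6 fell by 1.22, from 11.0 ± 0.926 (SD, n = 3) to 4.72 ± 0.817 CPM (SD, n = 6, edgeR adjusted p 0.00358). Btg1, an antiproliferative factor, rose by 0.55 (edgeR adjusted p 0.0268). With the run block 4 of 12 passed. Klf4 and Btg1 rose, against 13.7% of all genes, and Gas6 and Tob1 fell, against 14.5% of all genes. Under high stretch Gas6 fell by 1.32, from 24.5 ± 4.39 to 9.74 ± 2.95 CPM (SD, n = 3 each, edgeR adjusted p 0.0409). Klf4 and Klf2, zinc finger factors linked to growth arrest, rose by 1.61 and 1.35 (edgeR adjusted p 0.0494 and 0.0320). With Gas6 these were 3 of 12, against 3.47% of all genes tested. No gene of the other 4 lists passed under high stretch without a block in edgeR, and DESeq2 called 2 p53 targets. In 3 of these lists 1 to 2 genes had an unadjusted p under 0.05 in edgeR. With the block Sesn1 and Gadd45a fell by 0.80 and 0.92 (edgeR adjusted p 0.0217 and 0.00691). These were 2 of 16 p53 targets, where 932 of all 18524 genes were lower.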

How the data were processed

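RNA-seq of 15 samples of a mouse podocyte line was analysed at the level of genes and transcripts. The authors deposited whole-number read counts per gene and, in a second table, TPM per transcript. Per the submitters' processing notes, STAR 2.7.5c, featureCounts of Subread 2.0.0, Salmon 1.9.0, DESeq2 1.38.3 and the build mm39 were used; the annotation, the strand setting and the counting of read pairs are not given in the sources used here. Total counts per sample ranged from 172.2 to 396.7 M (1e6 counts). Groups came from the sample titles. Plate runs came from the order of the position codes in the descriptions, with a new run started at each unstretched sample.

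From the counts, log2 fold changes were fitted with edgeR 4.0.16 in R 4.3.3 (TMM scaling, filterByExpr, quasi-likelihood F test, Benjamini-Hochberg adjustment over all genes tested, threshold 0.05), each stretched group with its own unstretched samples. DESeq2 1.42.0, blocks for replicate number or run, other filters and each sample left out were alternatives. Leaving out plate run 2 was added after the data had been seen. TPM were summed per gene, and transcript usage was tested with limma 3.58.1. The tests across genes were tested on simulated data. Gene symbols were matched for 52083 of 55416 genes. The members and lists were chosen with earlier results of these data known, and values by sample (for 6 samples the lowest, median and highest) are given for members called in a stretch comparison with or without the run block, for the 3 of each role and comparison with the largest absolute log2 fold change at a mean of at least 1 CPM, and for 14 members set by name. Lin54 was not analysed here, and some podocyte markers are not reported here.

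Same-numbered samples had a mean correlation of their deviations from group means of -0.0731 (range -0.451 to 0.379) in experiment 1 and 0.224 (range -0.258 to 0.595) in experiment 2, so replicate numbers were not taken to pair samples. Samples of 1 run in experiment 1 had a mean correlation of 0.453. A run of experiment 2 is the same pair as a replicate number, and the run block was fitted there as an alternative only.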

Additional observations from a re-analysis of the deposited data

Results flagged for a closer look

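Of 19 groups of 6 low-stretch values examined, 1 held a sample far from the others. Cdkn2b, which encodes the CDK inhibitor p15, was at 50.5 CPM in low-stretch replicate 1, and the next highest sample was at 35.4 CPM. The gap made up 0.656 of the range of the 6 samples, above Dixon's 95% critical value for that number of samples. Chance alone marks about 1 in 20 such groups.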

How the results depend on the processing

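Under low stretch 0 members were called in the fits without a run block, with each sample left out in turn included, and with the run as a block 11 were called. A block for replicate number (low-stretch replicates 4 to 6 have no partner and drop out) gave 0 members and a CDK inhibitor median of 0.25. With 1 sample left out, the low-stretch medians ran from -0.078 to 0.35 for G1/S, below 0 without unstretched replicate 1 or 3 or low-stretch replicate 3 or 4, and from -0.35 to 0.030 for G2/M. Under high stretch the replicate block, which is also the run block, called 1 member, and leaving out 1 sample gave 0 to 1; the CDK inhibitor median then ran from -0.34 to 0.054. Between the unstretched groups 19 to 35 members were called with 1 sample left out, 35 with the replicate block, while 9312 to 15698 and 13154 of all genes were called, against 12941; the CDK inhibitor median was 0.76 with a mean count of at least 100 and 0.72 to 0.96 with 1 sample left out. Of all genes, 1181 were called under low stretch, against 2702 with DESeq2, 490 with the replicate block, 6106 with the run block, 640.0 in a fit of all 15 samples, 190.0 without run 2 (an alternative chosen after seeing the data) and 220.0 to 1630.0 with 1 sample left out. Under high stretch 643 were called, against 1315 with DESeq2, 1050.0 with no filter on low counts, 414 with a mean count of at least 100, 1546 with the block, 1488 in a fit of all 15 samples and 14 to 1421 with 1 sample left out, the lowest without high-stretch replicate 3. The test of the difference called 0 genes, and 3 with the run block. Of the 19 named members tested, calls with 1 sample left out changed in 0 of 171 results under low stretch, 2 of 114 under high stretch and, between the unstretched groups, in 21 of 114, where 15 calls were lost (Ccnd2, Mcm7, Cdc6, Cdkn1a and Cdkn2b) and 6 gained. No called value changed sign. The cause of these changes was not tested.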
